A study of Mus musculus with 8 samples.

Results

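The 7 genes described here are a small panel of macrophage genes that respond to interleukin-4 (IL-4) or mark monocyte-derived cells. They comprise the lectins Mgl2, Clec10a and Cd209a, the secreted proteins Chi3l3 and Retnla, the receptor chain Il4ra and the nuclear receptor Pparg, and all 7 were found among the 23413 gene symbols counted. The panel was chosen by name, with earlier results of these libraries in view, in which Mgl2 had one of the largest decreases after I.P. thiostrepton. Its members' values are therefore given as a description and without a test. RNA was sequenced from TAMs, the macrophages of a tumor, sorted as CD45+F4/80+CD11b+Gr-1− cells from subcutaneous B16F10 tumors, a mouse melanoma line, in male B6 mice that were 8 to 10 weeks old. There was 1 library per mouse, from 2 mice given the vehicle DMSO, 4 given thiostrepton, a thiopeptide antibiotic, by intraperitoneal (I.P.) injection, and 2 given thiostrepton subcutaneously beside the tumor (S.C., called IS in the sample labels). Dosing was on days 6 and 12 after engraftment and the sort on day 18. S.C. mice received 20 mg/kg, which the study calls a lower dose than those it gave by I.P. injection. Which I.P. dose these mice received and the route of the DMSO mice were not given in the sources used here. Route and dose thus differed together between S.C. and I.P. mice and cannot be told apart. Every mouse carried a tumor, so the DMSO mice are tumor-bearing controls, and a mixed pool of TAMs was sequenced rather than one macrophage subset.

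IL-4 and IL-13 bind receptors that share the chain encoded by Il4ra, and the signal reaches the nucleus through JAK kinases and the transcription factor STAT6. In mouse macrophages this program, called alternative or M2 activation, induces the galactose-type lectins, chitinase-like proteins, resistin-like molecules and, with the help of PPARγ, genes of lipid handling. Monocyte-derived macrophages and dendritic cells can also carry CD301b, the product of Mgl2, and CD209a, so these transcripts are read in the field as signs of either activation or origin.

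The libraries held 14127506 to 17577466 counts on genes, and values below are CPM, counts scaled to library size with TMM factors. The floor of 3 counts lay between 0.169 and 0.218 CPM and covers counting error only. I.P. mouse 1 and S.C. mice 1 and 2 stood apart, with a median Pearson r with the other libraries of 0.892, 0.868 and 0.884, against 0.937 to 0.954 in the other 5 mice. The labelled cell type was checked against its markers. All 12 genes on a list of defining TAM markers, among them Ptprc, Itgam and Emr1 (F4/80), had more than 3 counts in every mouse. Their summed level was 33998 to 40794 CPM in DMSO mice, 43508 to 72724 in I.P. mice and 52773 to 58764 in S.C. mice. Apoe and Lyz2 weighed most in this sum. Apoe was at a mean of 8070 CPM in DMSO, 21374 in I.P. and 15871 in S.C. mice, and Lyz2 at 15918, 15048 and 23208.5. Against DMSO, 6 of the 12 genes were higher and 6 lower in I.P. mice, with Ptprc, Itgam and Emr1 among the lower. In S.C. mice 9 were higher and 3 lower. Marker lists of other cells varied between the mice too. The list of neutrophils, which can express Chi3l3 themselves, summed to 186 to 193 CPM in DMSO, 133 to 186 in I.P. and 294 to 526 in S.C. mice. In DMSO and I.P. mice the sum came mostly from Csf3r, Mmp8 and Cxcr2. Their means were 40.1, 59.5 and 80.2 CPM in DMSO and 44.6, 39.4 and 53.6 CPM in I.P. mice. Whether this RNA came from neutrophils was not tested. Ngp was at 4.44 and 60.3 CPM in the S.C. mice and at most 2.17 CPM in the others. The melanoma list summed to 583 to 643 CPM in DMSO, 430 to 1652 in I.P. and 680 to 2965 in S.C. mice. The part of these cells in the results below was not tested.

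**Figure D1:**
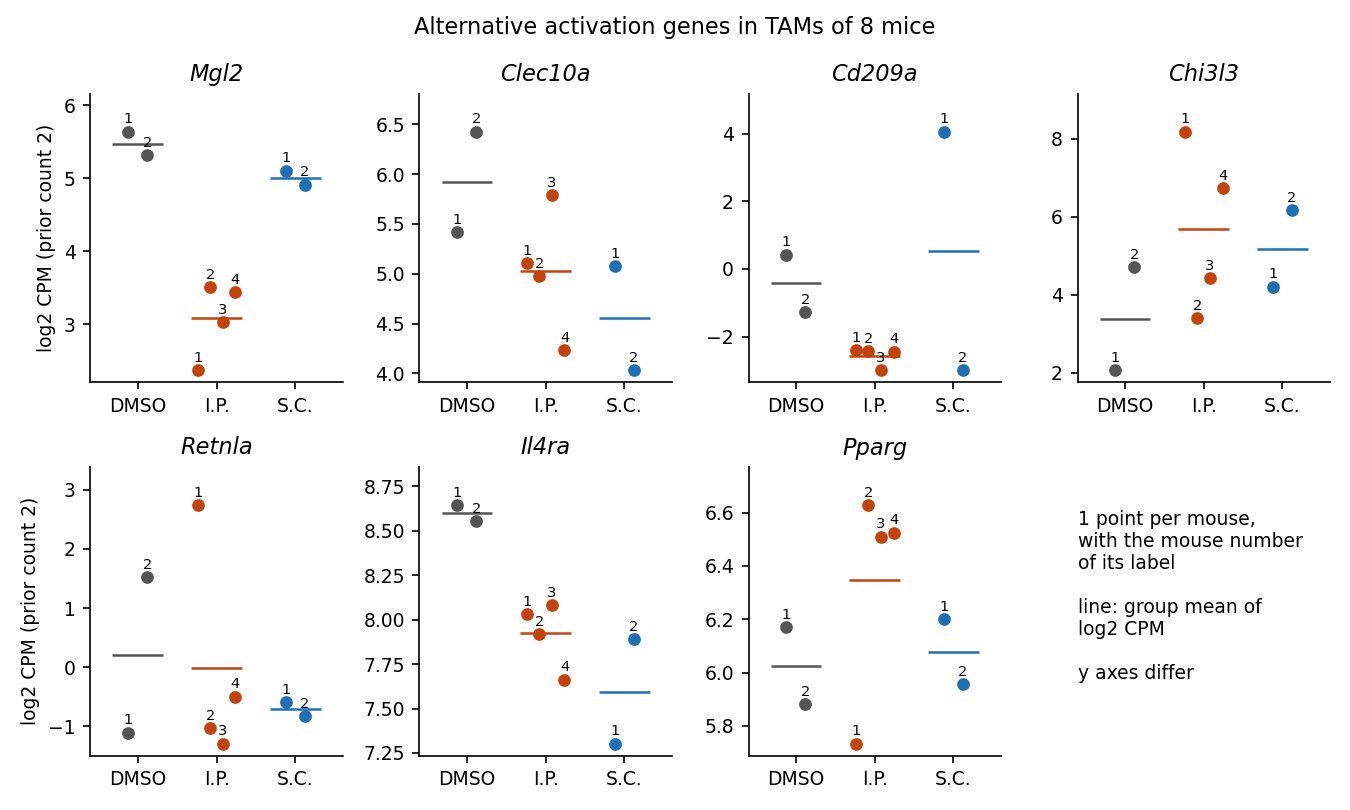
Log2 CPM (y axis, prior count of 2, a separate scale per gene) of the 7 genes in each mouse, by treatment on the x axis, with 1 point per numbered mouse and a line at the group mean. Mgl2 and Il4ra were lower in all 4 I.P. mice than in both DMSO mice, and Chi3l3, Retnla and Cd209a were spread widely within groups.

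Mgl2 (CD301b), a lectin that binds galactose and N-acetylgalactosamine, lies on chromosome 11 from 70130329 to 70137550 (GRCm38, GENCODE vM21). It stood at 49.7 and 39.6 CPM in the 2 DMSO mice, at 5.03, 11.2, 8.01 and 10.7 CPM in I.P. mice 1 to 4, and at 34.2 and 30.0 CPM in the 2 S.C. mice. All 4 I.P. mice were below every other mouse, and the S.C. mice lay between the I.P. and the DMSO mice without touching either. The counts behind these values were 733 and 690 in DMSO, 79 to 185 in I.P. and 509 and 412 in S.C. mice, far above the floor. The mean level was 44.7 ± 7.14 CPM in DMSO (SD, n = 2), 8.76 ± 2.86 in I.P. (n = 4) and 32.1 ± 3.0 in S.C. mice (n = 2). The fitted level was 5.10-fold lower in I.P. than in DMSO mice, a log2 fold change of -2.35 (SE 0.34), and 3.67-fold higher in S.C. than in I.P. mice, a log2 fold change of 1.87 (SE 0.41). Between S.C. and DMSO mice the log2 fold change was -0.50 (SE 0.35). Leaving out any single mouse kept the I.P. difference between -2.51 and -2.16, the latter without I.P. mouse 1. In sorted bulk TAMs, fewer cells carrying Mgl2 and less Mgl2 RNA per cell cannot be told apart, and this holds for every gene below.

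Clec10a (MGL1, CD301a), the neighbouring lectin gene with the closest sequence, starts 18647 bases beyond the end of Mgl2, on chromosome 11 from 70156197 to 70170834. It was at 42.7 and 85.8 CPM in the DMSO mice, at 34.3, 31.4, 55.1 and 18.7 CPM in I.P. mice 1 to 4, and at 33.6 and 16.2 CPM in the S.C. mice. The I.P. mice overlapped the DMSO mice, since I.P. mouse 3 exceeded DMSO mouse 1, while both S.C. mice were below both DMSO mice. The log2 fold change was -0.89 (SE 0.43) for I.P. and -1.40 (SE 0.54) for S.C. against DMSO, and -0.48 (SE 0.49) for S.C. against I.P. Both differences from DMSO were smaller without DMSO mouse 2, the highest of the 8, at -0.29 for I.P. and -0.81 for S.C. mice. Without S.C. mouse 1 the S.C. value was -2.01.

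The order of the groups thus differed between the neighbouring genes, with I.P. lowest for Mgl2 and S.C. lowest for Clec10a on the mean. The ratio of Mgl2 to Clec10a counts within a library, which does not depend on scaling, was 1.17 and 0.462 in DMSO, 0.147, 0.359, 0.145 and 0.573 in I.P. and 1.02 and 1.85 in S.C. mice. I.P. mouse 4 lay above DMSO mouse 2, so the I.P. and DMSO ratios overlapped, whereas both S.C. ratios were above all 4 I.P. ratios. Of the stretches of 50 bases in the Mgl2 exons, 12.2% also occur in the Clec10a exons, and reads from these stretches cannot be assigned by sequence alone.

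Cd209a, a mouse DC-SIGN homolog found on monocyte-derived dendritic cells, is located on chromosome 8, 3743397 to 3748984. Its counts were 18 and 5 counts in the DMSO mice, 1, 1, 0 and 1 in I.P. mice 1 to 4, and 247 and 0 in the S.C. mice. The I.P. mice were all at or under 1 count and below both DMSO mice, while 1 S.C. mouse was the highest of the series and the other at 0. Pooled over mice, the I.P. level was 0.0626 of the DMSO level by 3 counts against 23, with a 95% exact interval of 0.0120 to 0.207 that covers counting error only. The 16.6 CPM of S.C. mouse 1 had no counterpart in S.C. mouse 2, in which 0 counts allow up to 0.407 of the DMSO level. Of the 3 comparisons, Cd209a passed the filter on low counts only in that of S.C. with DMSO mice, where DMSO mouse 1 and S.C. mouse 1 were the mice with more than 10 counts. Its log2 fold change of 3.42 (SE 2.31) there rests on S.C. mouse 1, and its sign turned without that mouse.

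Other lectins of the Cd209 cluster were sparse as well. Cd209f was at 6.10 and 5.46 CPM in the DMSO mice, 0, 2.74, 0.169 and 1.40 in I.P. mice and 4.78 and 0 in S.C. mice, so that all 6 treated mice were below both DMSO mice. Cd209g, at 3.36 CPM, was also highest in S.C. mouse 1. Cd209c was placed the other way, at 1.97 and 2.24 CPM in the DMSO mice, 2.43 to 4.08 CPM under I.P. and 1.68 and 2.04 CPM under S.C., so that every I.P. mouse exceeded both DMSO mice. Flt3, a receptor of the dendritic cell lineage, had at most 3 counts in every mouse, and Zbtb46 and Kit were at or below 2.84 CPM. Genes on a list of 16 dendritic cell genes went both ways between S.C. and DMSO mice. Ccr7 was at 11.6 and 3.28 CPM in S.C. mice 1 and 2 and at most 2.16 CPM in the others. For S.C. against DMSO, 8 of the 16 genes passed the filter on low counts. All 8 were higher in S.C. mice, with a median log2 fold change of 0.74. Over all genes tested, 51.6% were higher. Irf8 was nearly level, at means of 205.5 and 211.8 CPM in DMSO and S.C. mice. On the mean of the sparse genes that did not pass, Dpp4, Siglech, Clec9a and Cd226 were lower in S.C. mice. Flt3, Zbtb46, Kit and Itgae were higher. Ccr7 passed through its S.C. counts, so the direction of the tested genes depends in part on the filter. For I.P. against DMSO, 7 of 9 were higher and 2 lower, where 51.8% of all genes were higher. Itgax (CD11c), shared by dendritic cells and macrophages, was at 71.9 and 124.6 CPM in the S.C. mice, against 13.2 to 30.4 CPM in the other 6 mice.

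Chi3l3 (Ym1, now Chil3), a chitinase-like protein without chitinase activity, is located on chromosome 3, 106147554 to 106167564. Its level was 4.07 and 26.1 CPM in the DMSO mice, 289.6, 10.5, 21.3 and 106.0 CPM in I.P. mice 1 to 4, and 18.4 and 71.4 CPM in the S.C. mice. I.P. mouse 1 was far above the rest, I.P. mouse 4 and S.C. mouse 2 were also above both DMSO mice, and all 3 groups overlapped. Its mean was 15.1 ± 15.6 CPM in DMSO, 106.8 ± 129.1 in I.P. and 44.9 ± 37.5 in S.C. mice, SDs of about the size of the means. The log2 fold changes were 2.80 (SE 1.36) for I.P. and 1.55 (SE 1.02) for S.C. against DMSO, and -1.25 (SE 1.21) for S.C. against I.P. The I.P. value was 1.59 without I.P. mouse 1 and 4.71 without DMSO mouse 2. Between S.C. and I.P. mice the value was -0.03 when I.P. mouse 1 was left out and -2.54 when S.C. mouse 2 was. The close copy Chi3l4 (Ym2) had 1 count in 1 mouse and 0 in the other 7, although 16.9% of the stretches of 50 bases of Chil3 also occur in Chil4.

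Retnla (FIZZ1, RELMα), a secreted resistin-like molecule, is located on chromosome 16, 48842551 to 48844461. Its counts were 5 and 48 counts in the DMSO mice, 103, 6, 5 and 10 in I.P. mice 1 to 4, and 8 and 6 in the S.C. mice, or 0.282 to 6.56 CPM. I.P. mouse 1 and DMSO mouse 2 were the highest and the other 6 mice had at most 10 counts, so that the spread was within the groups and not between them. It passed the filter on low counts only for I.P. against DMSO, with a log2 fold change of 0.29 (SE 1.38), and it did not pass there without I.P. mouse 1. That value was 2.49 without DMSO mouse 2 and -0.51 without DMSO mouse 1. I.P. mouse 1 was thus the highest mouse for both secreted proteins and DMSO mouse 2 the higher DMSO mouse for both.

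The promoters of Retnla and Chi3l3 are shown because STAT6 is known to drive both genes, and that of Mgl2 because all 3 groups were apart from each other for this gene. The 250 bases before each start, from RefSeq on GRCm38.p6, were searched for the STAT6-type motif TTCNNNNGAA and the general STAT motif TTCNNNGAA, each of which reads the same on both strands and which do not overlap in these promoters. Of 32851 promoters, 5.85% hold the former and 7.02% the latter. Capitals mark a match, at 145 bases before the start in Retnla (the former motif) and 172 in Chi3l3 (the latter), counted to its first base.
Retnla (chr16:48842359-48842608, + strand): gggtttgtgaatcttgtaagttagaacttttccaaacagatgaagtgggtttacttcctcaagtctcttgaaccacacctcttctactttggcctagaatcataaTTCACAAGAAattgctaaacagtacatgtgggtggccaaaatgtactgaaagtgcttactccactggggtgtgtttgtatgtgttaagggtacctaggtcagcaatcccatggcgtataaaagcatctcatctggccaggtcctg
Chi3l3 (chr3:106167565-106167814, − strand): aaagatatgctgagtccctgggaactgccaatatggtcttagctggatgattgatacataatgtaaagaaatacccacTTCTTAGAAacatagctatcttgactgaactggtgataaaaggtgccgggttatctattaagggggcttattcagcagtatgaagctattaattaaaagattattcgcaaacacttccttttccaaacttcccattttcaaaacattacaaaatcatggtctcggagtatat
Mgl2 (chr11:70130107-70130356, + strand): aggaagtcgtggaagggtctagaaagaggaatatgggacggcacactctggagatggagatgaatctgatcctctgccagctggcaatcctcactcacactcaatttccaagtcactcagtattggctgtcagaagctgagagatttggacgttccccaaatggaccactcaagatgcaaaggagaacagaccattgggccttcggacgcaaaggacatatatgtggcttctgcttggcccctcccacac
Neither motif was found in the Mgl2, Cd209a, Il4ra or 3 Pparg promoters, which says only that these letters are not in this window. Promoters were matched for 6 of the 7 genes.

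Il4ra, the receptor chain through which both IL-4 and IL-13 signal, is located on chromosome 7, 125552120 to 125579474. Its level was 399.7 and 375 CPM in the DMSO mice, at 262, 242, 271 and 202 CPM in I.P. mice 1 to 4, and at 158 and 237 CPM in the S.C. mice. All 6 treated mice were below both DMSO mice, and the I.P. and S.C. mice overlapped. The level was 387.5 ± 17.3 CPM in DMSO, 244.2 ± 30.4 in I.P. and 197.3 ± 56.1 in S.C. mice. This was 1.59-fold lower in I.P. mice, a log2 fold change of -0.67 (SE 0.21), and 1.996-fold lower in S.C. mice, a log2 fold change of -0.997 (SE 0.34). Leaving out any single mouse kept the I.P. value between -0.73 and -0.59, and the S.C. value was -1.36 without S.C. mouse 2 and -0.74 without S.C. mouse 1. Between S.C. and I.P. mice the log2 fold change was -0.31 (SE 0.27).

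Pparg, which encodes the lipid-sensing nuclear receptor PPARγ, is located on chromosome 6, 115360951 to 115490399. Its level was 71.9 and 58.9 CPM in the DMSO mice, at 53.1, 98.8, 91.0 and 91.9 CPM in I.P. mice 1 to 4, and at 73.5 and 62.0 CPM in the S.C. mice. I.P. mice 2, 3 and 4 were the 3 highest of the series and I.P. mouse 1 the lowest, while S.C. and DMSO mice were interleaved. The log2 fold change was 0.35 (SE 0.30) for I.P. and 0.02 (SE 0.32) for S.C. against DMSO, and -0.30 (SE 0.32) for S.C. against I.P. The I.P. value was 0.52 without I.P. mouse 1, and the S.C. value was -0.12 with library size as the only scaling.

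**Figure D2:**
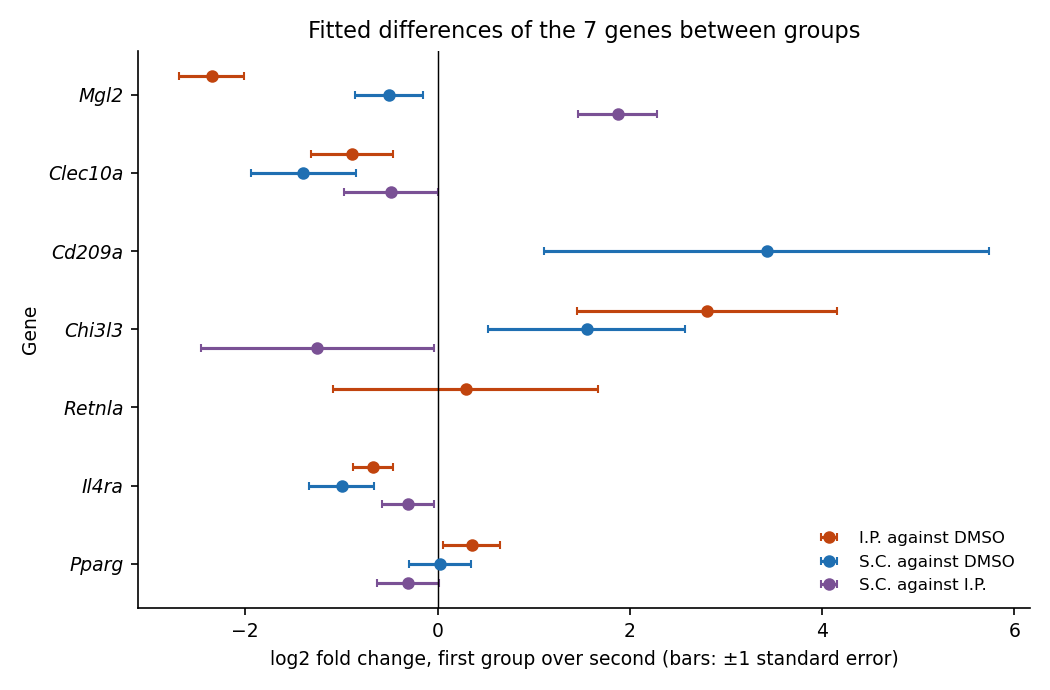
Fitted log2 fold change (x axis) of each of the 7 genes (y axis) in the 3 comparisons of groups, with bars of 1 standard error; a comparison in which a gene did not pass the filter on low counts is left out. Mgl2 lies at -2.35 for I.P. against DMSO with a short bar, and the bars of Chi3l3, Retnla and Cd209a are over 1 log2 unit on each side.

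Per kilobase of exon, the scale on which genes can be compared, Il4ra was highest in DMSO mice with 64.6 ± 2.89 CPM per kb (SD, n = 2). Clec10a at 22.2 ± 10.5, Pparg at 22.1 ± 3.12 and Mgl2 at 21.3 ± 3.41 followed and did not differ beyond their spread. Chi3l3 was at 9.23 ± 9.53, Retnla at 2.58 ± 2.85 and Cd209a at 0.476 ± 0.417 CPM per kb, each with an SD of about its own mean. In I.P. mice Chi3l3 had the highest mean, 65.5 ± 79.1 CPM per kb (n = 4), a mean set by mouse 1 at 177 against a lowest mouse of 6.41. Il4ra was at 40.7 ± 5.07, Pparg at 28.3 ± 7.01, Clec10a at 12.03 ± 5.20 and Mgl2 at 4.18 ± 1.37 CPM per kb in those mice. In S.C. mice Il4ra was at 32.9 ± 9.34, Chi3l3 at 27.5 ± 23.0, Pparg at 22.9 ± 2.75, Mgl2 at 15.3 ± 1.43 and Clec10a at 8.59 ± 4.23 CPM per kb (n = 2). On this scale the mean of Mgl2 was below that of Clec10a under I.P. and above it under S.C., while the DMSO mice were split, with Mgl2 at 23.7 and Clec10a at 14.7 CPM per kb in mouse 1 and 18.9 and 29.6 in mouse 2.

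Across all genes, DEGs were called as the study did, from a fold of 2 or more and a P below 0.05 before adjustment, here with edgeR's quasi-likelihood test. Of 12174 genes tested for I.P. against DMSO, 1.53% were upregulated DEGs and 0.468% downregulated DEGs. Of 11680 genes for S.C. against DMSO these shares were 2.29% and 2.77%, and of 12206 genes for S.C. against I.P. 2.41% and 4.64%. After Benjamini-Hochberg adjustment 0 genes (0%) had an adjusted p under 0.05 by this test in each of the 3 comparisons, with 418, 632 and 1049 genes at an unadjusted P under 0.05. The adjusted count was 10, 179 and 265 by edgeR's likelihood ratio test and 19, 107 and 234 by DESeq2. Mgl2, Il4ra and, below the filter, Cd209a had all I.P. mice below both DMSO mice, where 6.83% of all genes tested were so placed below and 7.31% above. Mgl2, Clec10a and Il4ra had both S.C. mice below both DMSO mice, against 17.2% of genes below and 17.1% above. Mgl2 had both S.C. mice above all I.P. mice, against 8.05% of genes above and 10.5% below. Since the panel was selected on these libraries, nothing is read from these counts. The smallest two-sided p that an exact permutation test allows is 0.133 for 4 mice against 2 and 0.333 for 2 against 2. The p-values given for other genes measure the spread between these mice.

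The rest of the IL-4 pathway was followed with a list of receptor signalling genes and one of other IL-4-induced macrophage genes, 43 in all. For I.P. against DMSO, the median log2 fold change of the 33 listed genes tested was -0.02, against 0.02 over all genes. Upregulated DEGs made up 1.53% and downregulated DEGs 0.468% of all genes tested. Of the 33 listed genes, 2 were DEGs, both downregulated. They were Il2rg, the common γ chain that pairs with Il4ra, and Ccl24, an eosinophil-attracting chemokine induced by IL-4. Il2rg was at 376 and 142 CPM in the DMSO mice and at 84.2, 109, 197 and 114 CPM in the I.P. mice, a log2 fold change of -1.04 (SE 0.43). The ranges overlapped through I.P. mouse 3, and the adjusted p was 0.98 by edgeR's quasi-likelihood test. Ccl24 was at 3.87 and 31.6 CPM in DMSO and 10.7, 2.49, 3.33 and 2.45 CPM in I.P. mice, a log2 fold change of -1.92 (SE 0.81, adjusted p 0.98 by the same edgeR test). Like Chi3l3 and Retnla, it was higher in DMSO mouse 2 than in DMSO mouse 1, and highest among I.P. mice in mouse 1.

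**Figure D3:**
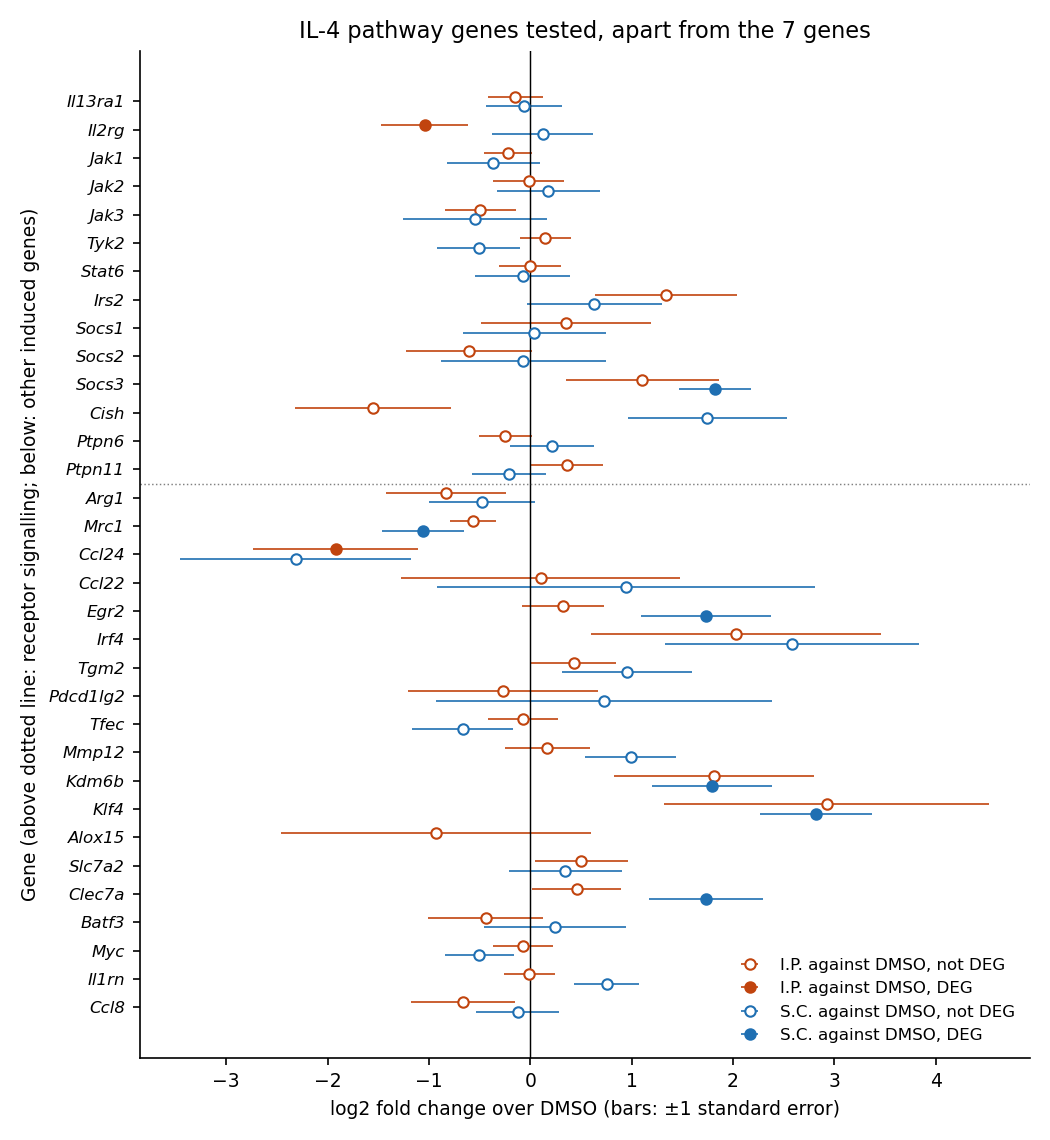
Log2 fold change over DMSO (x axis, bars of 1 standard error) of the IL-4 receptor signalling genes and the other IL-4-induced genes that were tested (y axis), for I.P. and S.C. mice, with filled points for DEGs. The I.P. points lie on both sides of 0, from Ccl24 at -1.92 to Klf4 at 2.92, a value with a standard error of 1.61, and 5 of the 6 S.C. DEGs lie to the right.

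Stat6, the transcription factor of the pathway, was at 237 ± 70.0 CPM in DMSO (n = 2), 238 ± 68.0 in I.P. (n = 4) and 228 ± 118.9 in S.C. mice (n = 2). Il13ra1, which joins Il4ra in the type II receptor, was at 88.5 ± 13.9, 80.0 ± 17.5 and 86.4 ± 29.5 CPM. The phosphatase gene Ptpn6 was the most abundant gene of the signalling list, at 429 ± 120.2 CPM in DMSO, 363 ± 60.6 in I.P. and 506.5 ± 203.0 in S.C. mice. None of these 3 was a DEG in any comparison. Il4 had at most 2 counts in any mouse and Il13 had 0 counts in all 8, which allows at most the 3 counts of the floor per library.

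For S.C. against DMSO, the median log2 fold change of the 32 listed genes tested was 0.20, against 0.02 over all genes. Upregulated DEGs made up 2.29% and downregulated DEGs 2.77% of all genes tested. Of the 32 listed genes, 6 were DEGs, 5 upregulated and 1 downregulated. The upregulated genes were Socs3, a feedback inhibitor of JAK signalling, the transcription factors Egr2 and Klf4, the histone demethylase gene Kdm6b and Clec7a (Dectin-1), the β-glucan receptor. Klf4 was at 3.93 and 6.72 CPM in DMSO mice and 49.4 and 27.7 CPM in S.C. mice, a log2 fold change of 2.82 (SE 0.55, adjusted p 0.747 by edgeR's quasi-likelihood test). Socs3 was at 30.7 and 25.2 CPM in DMSO and 83.7 and 116.8 CPM in S.C. mice, a log2 fold change of 1.82 (SE 0.36, adjusted p 0.747 by the same edgeR test). These 2 genes had an adjusted p under 0.05 by edgeR's likelihood ratio test (0.00528 for Klf4 and 0.00807 for Socs3) and by DESeq2 (0.00162 and 0.0041). The log2 fold changes of Egr2, Kdm6b and Clec7a were 1.73, 1.80 and 1.74. In I.P. mouse 1, Klf4 stood at 149 CPM, Kdm6b at 44.4 CPM and Socs3 at 152 CPM, above both S.C. mice, while in I.P. mice 2, 3 and 4 Klf4 was at 4.06 to 7.88 CPM.

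The downregulated gene was Mrc1 (CD206), the mannose receptor often used to mark M2-like macrophages. It was at 616 and 902 CPM in the DMSO mice, 477 to 549 CPM in the I.P. mice and 271 and 471 CPM in the S.C. mice. Its 6 treated mice were all below both DMSO mice, as for Il4ra. The log2 fold change was -1.06 (SE 0.41) for S.C. and -0.57 (SE 0.23) for I.P. against DMSO, with an adjusted p of 0.902 for S.C. by edgeR's quasi-likelihood test. Arg1 (arginase-1), another classical IL-4-induced gene, was at 691 ± 249.8 CPM in DMSO, 390 ± 308.4 in I.P. and 504 ± 301.8 in S.C. mice and was not a DEG. Neither were the most abundant genes of the list, the elastase gene Mmp12, at 2550 ± 353.6, 2865 ± 1294 and 5153 ± 2678 CPM, and the chemokine gene Ccl8, at 1811 ± 264.6, 1143 ± 829.3 and 1692 ± 794.7 CPM.

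For S.C. against I.P., the median log2 fold change of the 32 listed genes tested was 0.29, against 0.02 over all genes. DEGs higher in S.C. mice made up 2.41% and lower ones 4.64% of all genes tested. Of the 32 listed genes, 4 were DEGs, all higher in S.C. mice. They were Il2rg (1.18, SE 0.34), the STAT-induced inhibitor gene Cish (3.32, SE 0.88), Egr2 (1.42, SE 0.52) and Clec7a (1.30, SE 0.32), with an adjusted p between 0.295 and 0.492 by edgeR's quasi-likelihood test. Cish and Clec7a had an adjusted p under 0.05 by the likelihood ratio test (0.0194 and 0.0251) and by DESeq2 (0.0214 and 0.0203). Cish was at 4.61 and 5.28 CPM in DMSO, 0.382, 1.03, 3.84 and 1.46 CPM in I.P. and 7.06 and 26.7 CPM in S.C. mice. The 3 groups did not overlap, with I.P. lowest and S.C. highest.

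Genes that partner PPARγ or are its lipid targets made up another list. Of the 18 tested, 0 were DEGs for I.P. against DMSO by edgeR's quasi-likelihood test, with 2 at an unadjusted P under 0.05. Over all genes 1.53% were upregulated and 0.468% downregulated DEGs in that comparison. Downregulated DEGs made up 2.77% of all genes for S.C. against DMSO and 4.64% for S.C. against I.P. Abcg1, a cholesterol exporter, was the 1 DEG of the list in both comparisons. It was downregulated in each by 1.22 log2 units (a log2 fold change of -1.22, SE 0.36 and 0.37). It was at 75.3 and 69.3 CPM in DMSO, 53.8 to 107.6 CPM in I.P. and 37.1 and 25.9 CPM in S.C. mice, with both S.C. mice below all others. The lipid droplet gene Plin2, at 1873 ± 306.9 CPM in DMSO, 1981 ± 294.0 in I.P. and 2168 ± 45.2 in S.C. mice, and the fatty acid carrier gene Fabp5, at 1395 ± 1027, 2011 ± 820.2 and 1489 ± 34.2 CPM, were the most abundant of the list.

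Among 14 other C-type lectins tested, 0 were DEGs for I.P. against DMSO by edgeR's quasi-likelihood test, with 1 at an unadjusted P under 0.05. Over all genes 1.53% were upregulated and 0.468% downregulated DEGs there. For S.C. against DMSO 2 of the 14 were upregulated DEGs, against 2.29% of all genes. These 2 were Clec4e (Mincle), a receptor for mycobacterial glycolipids, and Clec1b (CLEC-2), a podoplanin receptor, with log2 fold changes of 1.43 (SE 0.54) and 3.80 (SE 0.94). Clec1b had 14 and 6 counts in DMSO and 123 and 140 in S.C. mice, and passed the filter on low counts through the S.C. mice. The abundant Clec4n (Dectin-2) was at 314 and 320 CPM in DMSO, 168 to 254 CPM in I.P. and 374 and 341.5 CPM in S.C. mice, and Clec12a at 281 ± 69.7, 245 ± 163.3 and 365 ± 107.4 CPM. The I.P. mice were thus below all others for Clec4n, as for Mgl2, though by a log2 fold change of -0.55 (SE 0.23) from DMSO. Of 7 paralogs of Retnla and Chi3l3, 2 were tested for S.C. against DMSO, and 1, Chi3l1, was an upregulated DEG, against 2.29% of all genes. Chi3l1 was at 0.0678 and 0.344 CPM in DMSO and 4.17 and 4.51 CPM in S.C. mice, with a log2 fold change of 4.30 (SE 1.24). With 1 and 6 counts in DMSO mice, it passed the filter on low counts only through the S.C. mice and could not have been called downregulated. The neutrophil-expressed Retnlg was at 0.394 ± 0.174 CPM in DMSO, 1.16 ± 1.03 in I.P. and 3.41 ± 3.31 in S.C. mice.

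Among genes averaging 5 CPM or more, those with a profile over the 8 mice nearest to Mgl2 were Prelid2, Cass4, Ccr2, Pls3 and Fcrls. Likeness was measured as the root mean square difference of log2 CPM centred per gene, and for these 5 it was 0.58 to 0.61 log2 units, against a median of 1.22 over the 9327 genes compared. Ccr2, the receptor for the monocyte chemokine CCL2, is located on chromosome 9, 124101950 to 124113557. Its level was 59.9 and 79.2 CPM in DMSO, 12.7, 7.30, 13.1 and 20.1 CPM in I.P. and 60.7 and 76.7 CPM in S.C. mice. As for Mgl2, all 4 I.P. mice were below every other mouse, but the S.C. mice were level with the DMSO mice. The log2 fold change of Ccr2 was -2.39 (SE 0.36) for I.P. against DMSO and 2.37 (SE 0.40) for S.C. against I.P. These 5 genes were picked for their likeness to Mgl2 over the same 8 mice, which fixes their direction, so their values are a description and no test is given. Fcrls, a macrophage and microglial gene, was at 337 and 441 CPM in DMSO, 58.5, 313, 89.8 and 152 CPM in I.P. and 248 and 231.5 CPM in S.C. mice.

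**Figure D4:**
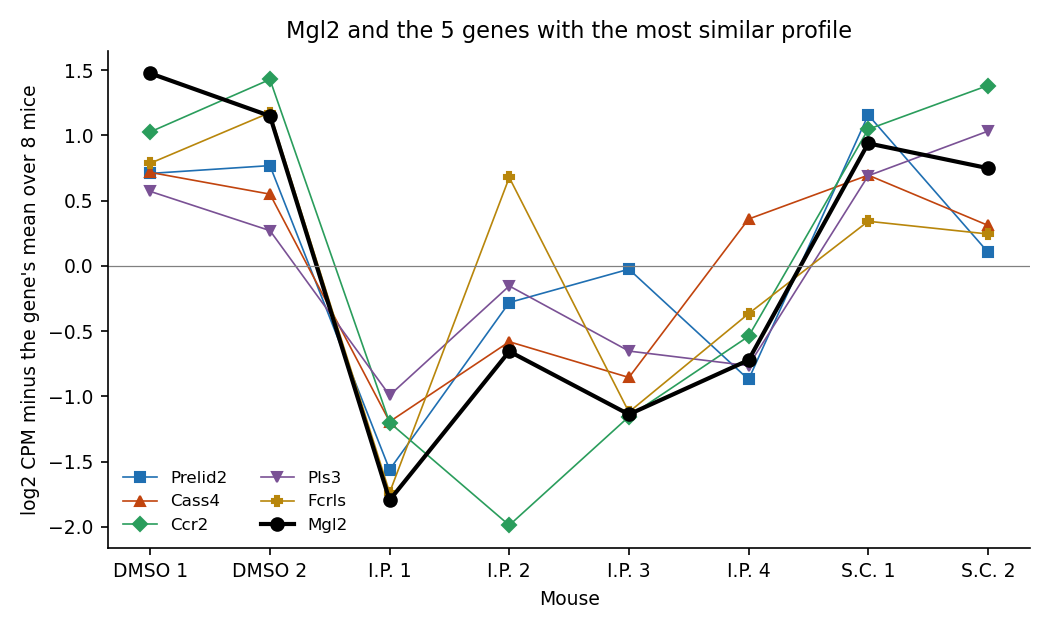
Log2 CPM of Mgl2 and its 5 nearest genes, each minus its own mean over the 8 mice (y axis), in each mouse (x axis); lines join the values of 1 gene. Mgl2 is below its mean in all 4 I.P. mice and above it in the other 4, and Prelid2, Ccr2 and Pls3 share these sides in all 8 mice.

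The nearest profiles to Il4ra were those of Pik3cg, Nop16 and Nras at 0.17 to 0.19 log2 units (median over all genes 0.58), and those nearest to Pparg were Cdkn2aip, Mgme1 and B3galnt1 at 0.15 to 0.17 (median 0.52). The nearest to Clec10a were Kdelr2, Emd and Raly at 0.29 to 0.33 (median 0.85). The nearest to Chi3l3, at a wider distance, were Hp, Csf1 and Dot1l at 1.03 to 1.08 (median 1.88). Hp (haptoglobin) was at 36.6 CPM in I.P. mouse 1 and at most 8.95 CPM in the others. Csf1 was at 26 CPM in I.P. mouse 1, 18.3 in I.P. mouse 4 and 19.2 in S.C. mouse 2, the same 3 mice in which Chi3l3 was above both DMSO mice. All these genes were picked for their likeness over the same mice, so such agreement follows from the choice and is no test.

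Other genes of monocyte-derived cells gave no single direction. For I.P. against DMSO, 17 genes of the list passed the filter on low counts. Ccr2, described above, is given no call here. Of the others, F13a1 was a downregulated and Itgb7 an upregulated DEG, against 0.468% and 1.53% of all genes tested. Itgb7 was at 6.92 and 10.9 CPM in DMSO and 69.8, 7.78, 19.5 and 24.9 CPM in I.P. mice 1 to 4, so that the groups overlapped. Its log2 fold change was 1.76 (SE 0.77, adjusted p 0.98 by edgeR's quasi-likelihood test). F13a1, a coagulation factor gene of monocytes and macrophages, was at 1076 and 2097 CPM in DMSO, 462, 836.5, 612 and 742 CPM in I.P. and 332 and 652 CPM in S.C. mice, below both DMSO mice in all 6 treated mice. Its log2 fold change was -1.26 (SE 0.33) for I.P. and -1.71 (SE 0.51) for S.C. against DMSO. For S.C. against DMSO, Ly6c2 and Klf2 were among the upregulated DEGs, with log2 fold changes of 2.70 and 2.48. Ly6c2, a marker of classical monocytes, was at 2.78 and 3.22 CPM in DMSO, 0 to 7.96 CPM in I.P. and 11.2 and 28.5 CPM in S.C. mice. The most abundant other gene of this list, Thbs1, was at 52.6 ± 7.41 CPM in DMSO, 85.2 ± 68.4 in I.P. and 266 ± 307.8 in S.C. mice.

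**Figure D5:**
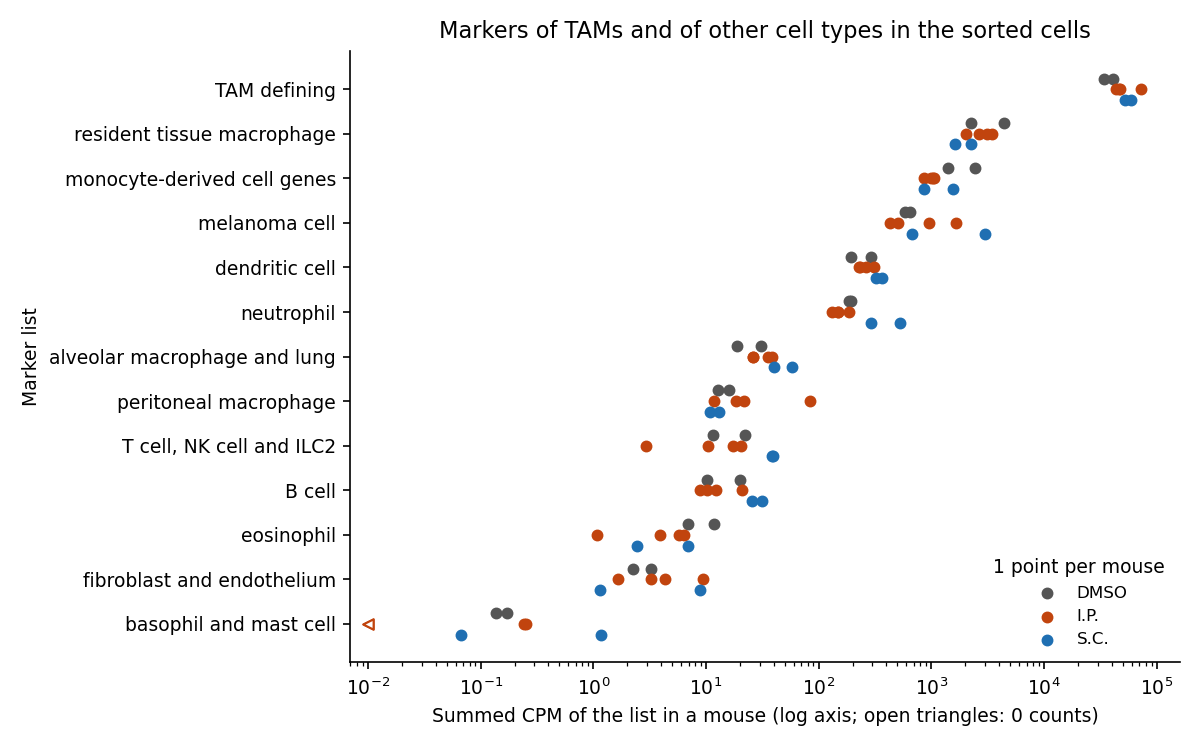
Summed CPM (x axis, log scale) of lists of marker genes (y axis) in each mouse, 1 point per mouse, colored by treatment; open triangles stand for a sum of 0 counts. TAM markers sum to 33998 CPM or more in every mouse, and basophil and mast cell genes to at most 1.16 CPM.

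Several macrophage subsets and other cell types also express members of the panel, and their markers were summed for each mouse. The 16 genes of the dendritic cell list summed to 195 to 292 CPM in DMSO, 229 to 308 in I.P. and 326 to 362 in S.C. mice, mostly from Irf8, and 2 to 8 of them had at most 3 counts. Resident macrophage genes (Lyve1, Folr2 and Cd163 among 8) summed to 2252 to 4431 CPM in DMSO, 2022 to 3423 in I.P. and 1610 to 2250 in S.C. mice. Lyve1 was at 16.6 and 81.6 CPM in DMSO, 8.97 to 19.4 in I.P. and 1.21 and 0 in S.C. mice. Eosinophils and alveolar macrophages are other cells that can express Chi3l3. Epx, the eosinophil peroxidase gene, had 0 counts in all 8 mice, and the eosinophil list summed to 6.92 to 11.7 CPM in DMSO, 1.08 to 6.42 in I.P. and 2.42 to 6.99 in S.C. mice. The list of alveolar macrophage and lung genes summed to 18.7 to 30.9 CPM in DMSO, 26.1 to 38.8 in I.P. and 40.0 to 57.8 in S.C. mice. This sum mixed directions. Of its 13 genes, 5 were tested for S.C. against DMSO, where 2.29% of all genes were upregulated and 2.77% downregulated DEGs. Of the 5, 4 were upregulated DEGs, Chi3l1 and the lung epithelial genes Sftpc, Sftpa1 and Scgb1a1. Sftpc was at 1.56 and 0.919 CPM in DMSO and 20.4 and 32.2 CPM in S.C. mice. Sftpa1 had 8 and 7 counts and Scgb1a1 1 and 3 counts in DMSO mice. These 2 genes passed the filter on low counts only through the S.C. mice and could not have been called downregulated. Marco, a scavenger receptor of alveolar and other macrophages, was a downregulated DEG with a log2 fold change of -1.79. The part of lung RNA in the S.C. values was not tested. The basophil and mast cell list stood at 0.136 to 0.172 CPM in DMSO, at most 0.255 CPM in I.P. and 0.0673 to 1.16 CPM in S.C. mice.

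I.P. mouse 1, highest for Chi3l3 and Retnla, had a peritoneal macrophage sum of 83.9 CPM, against 10.9 to 21.7 CPM in the other 7 mice. Of this sum 81.4 CPM were Saa3, an acute-phase gene that macrophages in general can express. Gata6, which defines resident peritoneal macrophages, had 0 counts in all 8 mice. The B cell list summed to 10.3 to 19.9 CPM in DMSO, 8.81 to 20.7 in I.P. and 25.5 to 31.2 in S.C. mice. The list of T cells, NK cells and ILC2, the first and last of which can make IL-4 or IL-13, summed to 11.6 to 22.2, 2.93 to 20.4 and 38.4 to 39.3 CPM. Fibroblast and endothelial genes summed to at most 9.33 CPM in any mouse.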

How the data were processed

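The authors deposited raw RNA-seq counts per gene symbol as whole numbers without normalization. Per the study's methods, reads were aligned to mm10 with bowtie2 and counted with RSEM, whereas the submitters' processing notes name TopHat2 and edgeR. Strand handling and annotation were not given in the sources used here. RNA came from TAMs of 8 mice, grouped by the labels as DMSO (2), I.P. (4) and S.C. (2, labelled IS).

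In R 4.3.3 with edgeR 4.0.16 and limma 3.58.1, each pair of groups was filtered by filterByExpr (minimum count 10, minimum total count 15), scaled by TMM and fitted with the two-sided quasi-likelihood test over all genes, with Benjamini-Hochberg adjustment. Standard errors were taken as the log2 fold change over the root of its F statistic. The procedure was tested on simulated data. Log2 CPM used a prior count of 2. Alternatives were DESeq2 1.42.0, the likelihood ratio test, other filters and scalings, all 3 groups in 1 fit, a replicate block and leaving out each mouse.

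The members and all gene lists were chosen with earlier results of these data known. Named genes were the 7 members, and, from each pathway list, up to 6 DEGs with the smallest P per comparison and the 2 genes with the highest mean CPM. To these came the genes nearest in profile (5 for Mgl2, 3 for other members with a mean of at least 5 CPM), defining markers of cell-type lists, and Ccr2. Itgax, Ccr7, Dpp4, Siglech, Clec9a, Cd226, Itgae, Apoe, Lyz2, Cd209c, Cd209f, Cd209g, Marco, Sftpa1, Scgb1a1, Chi3l4, Il4, Il13, Il13ra1, Arg1, Saa3, Irf8, Ngp, Csf3r, Mmp8 and Cxcr2 were named from their lists after their values were seen. Same-numbered mice did not deviate together, so numbers were not used to pair mice. Positions are from GENCODE vM21 (GRCm38, the assembly of mm10) and promoters from RefSeq (GRCm38.p6). A DEG of the monocyte list is not reported here.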

Additional observations from a re-analysis of the deposited data

Results flagged for a closer look

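In the 4 I.P. mice, 1 mouse lay far from the others for 3 of the 7 genes by Dixon's ratio of the gap to the range (95% critical value for 4 samples). The ratio was 0.952 for Retnla, where I.P. mouse 1 had 103 counts and the other 3 had 5 to 10. It was 0.8296 for Pparg, just past the critical value, where I.P. mouse 1 was at 53.1 CPM and the others at 91.0 to 98.8 CPM. It was 0.9155 for Cd209a, where the mice had 0 or 1 count, all under the floor of 3 counts, so that the distance is that of a single count. Chance flags about 1 in 20 groups. Over all genes tested for I.P. against DMSO, 8.67% were past the critical value in the I.P. mice, and in 67% of these the distant mouse was I.P. mouse 1.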

How the results depend on the processing

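The I.P. difference of Mgl2 kept its sign in all alternatives run, between -2.56 with the replicate block and -2.16 without I.P. mouse 1. The number of DEGs for I.P. against DMSO was 243, 160 with all 3 groups in 1 fit, and 116 to 361 when 1 mouse was left out (116 without DMSO mouse 1). For S.C. against DMSO it was 591 (268 upregulated, 323 downregulated, but 196 and 429 with library size as the only scaling, which moved the median of all genes from 0.02 to -0.13, and for S.C. against I.P. from 0.02 to -0.08). Leaving out 1 mouse gave 113 to 3432, with 113 without DMSO mouse 2, 206 without DMSO mouse 1, 2989 without S.C. mouse 1 and 3432 without S.C. mouse 2. For S.C. against I.P. it was 860, and 632 to 2115 with 1 mouse left out, 2003 without S.C. mouse 1 and 2115 without S.C. mouse 2. A lone S.C. or DMSO mouse is assumed in these fits to vary like the other group. DEGs among the IL-4 lists numbered 2 for I.P. against DMSO (4 by DESeq2, 1 with all 3 groups in 1 fit, 0 without I.P. mouse 4, up to 4 without I.P. mouse 3), 6 for S.C. against DMSO (3 with all 3 groups in 1 fit, 3 without DMSO mouse 2, 13 without S.C. mouse 2) and 4 for S.C. against I.P. (3 to 8, the highest without I.P. mouse 1). With 1 mouse left out, the log2 fold change of Retnla for I.P. against DMSO ranged from -0.51 to 2.49. For S.C. against DMSO the range was 0.21 to 3.43 for Chi3l3 (lowest without S.C. mouse 2), -1.36 to -0.74 for Il4ra and -6.53 to 4.77 for Cd209a, whose sign turned without S.C. mouse 1, where the arm had 0 counts and the fitted value is no bound. For Il4ra between S.C. and I.P. mice it was -0.64 to -0.045. The cause of these shifts was not tested.

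Same-numbered mice correlated in their deviations from the group means at r between -0.129 and 0.071, so the replicate block treats a shared number only. Its I.P. fits rest on I.P. mice 1 and 2, since mice 3 and 4 share no number. With it the DEGs numbered 330 (152 upregulated and 178 downregulated, against 186 and 57) for I.P. and 429 for S.C. against DMSO, and 391 for S.C. against I.P., and 5 of the IL-4 genes were DEGs for I.P. With the numbers of the S.C. mice crossed, an alternative chosen after the data were seen, 475 genes were DEGs for S.C. against DMSO.

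With 2 DMSO and 2 S.C. mice, values that rest on DMSO mouse 2 or on 1 S.C. mouse cannot be told from a difference between groups. Cd209a and Retnla are limited by depth, with at most 48 counts in all but 1 mouse each.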
